A study of Mus musculus with 9 samples.

Results

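Complement genes were examined in CD11b+ cells from livers of mice given acetaminophen (APAP), a drug that injures hepatocytes in overdose. The 9 genes are C1qa, C1qb and C1qc, the chains of C1q; C3 and C4b, the components that are split and attach to targets; Cfb and Cfp, which act in the alternative pathway; and C3ar1 and C5ar1, the receptors for the fragments C3a and C5a. They were chosen by name and matched by gene ID among the 45777 genes of the deposited tables. All 9 passed the filter, a minimum of 1 TPM in 3 or more samples, as did 13820 genes in all. TPM are transcripts of a gene as a share of all transcripts, scaled to a fixed total in each sample, a level that takes gene length into account.

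All mice had received APAP intraperitoneally. The control group then received PBS, and the other groups received intravenous extracellular vesicles (EV) at 8 hours after APAP. The labels call these HEKSIRP-EV or SIRP-EV. HEK cells, an established line derived from human embryonic kidney, were the source of the vesicles in the HEK-EV group, and MSC, taken to be mesenchymal stromal or stem cells, in the MSC-EV group. Livers were taken at 48 hours and CD11b+ cells were isolated and sequenced in bulk, with 3 samples per group. No group without APAP and no group with vesicles that lack SIRP was analysed here, and the labels give no strain, sex or age. CD11b is a surface integrin chain of monocytes, macrophages and neutrophils, so each sample is a mixture of these cells. In such bulk samples, fewer cells of a type and less RNA per cell cannot be told apart. The labels do not say whether the samples of a group came from separate animals, so p-values measure the spread between these samples only.

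Complement is a cascade of proteins that tags dying cells, debris and microbes for uptake and attracts leukocytes. C1q binds targets such as antibody and apoptotic cells and starts the classical pathway through C4 and C2, lectins such as ficolins start a parallel route, and both lead to cleavage of C3. Factor B, encoded by Cfb, forms the convertase of the alternative pathway with C3b, and properdin, encoded by Cfp, stabilises it. Hepatocytes make most circulating C3, C4 and factor B, whereas macrophages, Kupffer cells among them, are a main source of C1q, and myeloid cells make properdin and carry the receptors for C3a and C5a.

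Without read counts in the tables, the sequencing depth is unknown and the values carry no counting error. Coverage divided by FPKM, a measure that grows with depth, lay between 5.28 and 6.84 over the 9 samples and was higher in each MSC-EV sample (6.58 to 6.84) than in any PBS or HEK-EV sample (5.28 to 6.47). Ptprc, the pan-leukocyte gene, was at 585 ± 65.9 TPM with PBS, 614 ± 49.5 with HEK-EV and 424 ± 4.85 with MSC-EV (SD, n = 3 each), lower with MSC-EV than with PBS (-0.46 on the log2 scale, adjusted p = 0.0271) and than with HEK-EV (-0.53, adjusted p = 0.0207). Transcripts of pancreatic acinar cells, which make digestive enzymes, set some samples apart. The 21 acinar genes reached 0.376% and 0.0175% of TPM in replicates 3 and 1 of the MSC-EV group and 0.134% and 0.00446% in replicates 2 and 1 of the HEK-EV group. In the other 5 samples, including all 3 PBS samples, the share was 0.00133% to 0.00154%.

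The genes lie on 5 chromosomes and all on the minus strand, in the coordinates of the files (mm10). The C1q genes are neighbours within 18.7 kb of chromosome 4: C1qb (gene ID 12260) at chr4:136880126-136886200, C1qc (12262) at chr4:136889801-136892936 and C1qa (12259) at chr4:136895916-136898844. C3 (12266) lies at chr17:57203967-57228136, and C4b (12268) and Cfb (14962) lie in another part of that chromosome, at chr17:34728139-34743902 and chr17:34856374-34862514. Cfp (18636) is at chrX:20925454-20931555, C3ar1 (12267) at chr6:122847140-122856157 and C5ar1 (12273) at chr7:16246743-16259540. C3 and Cfb each overlap an annotated microRNA gene, listed at no more than 2.66 TPM in any sample. C4b has a near-identical copy, C4a, with which it can share reads, so its level is uncertain.

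The 250 bases before the annotated start were read for the genes whose levels the results turn on, from RefSeq on build GRCm38.p6. A window was found for 6 of the 9 genes, not for C1qa, C4b and Cfb. Of these, C3ar1 and C5ar1 are shown because they passed the threshold, in opposite directions, C1qb and C1qc because they are neighbours with similar profiles, and C3 as the central component. The sixth window, that of Cfp, held none of the motifs searched and is not shown. Sequences are written 5′ to 3′ on the minus strand, from 250 bases before the start to the last base before it. The start used for C1qc and C5ar1 lies inside the span the files give for these genes, so their windows reach into it. Capitals mark matches to motifs that were chosen after the sequences had been read.
C3ar1 (chr6:122856158-122856407): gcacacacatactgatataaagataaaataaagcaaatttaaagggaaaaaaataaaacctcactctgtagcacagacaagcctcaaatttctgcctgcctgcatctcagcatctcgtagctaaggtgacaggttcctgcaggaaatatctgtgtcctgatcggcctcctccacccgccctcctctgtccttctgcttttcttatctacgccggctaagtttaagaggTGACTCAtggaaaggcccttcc
C5ar1 (chr7:16259339-16259588): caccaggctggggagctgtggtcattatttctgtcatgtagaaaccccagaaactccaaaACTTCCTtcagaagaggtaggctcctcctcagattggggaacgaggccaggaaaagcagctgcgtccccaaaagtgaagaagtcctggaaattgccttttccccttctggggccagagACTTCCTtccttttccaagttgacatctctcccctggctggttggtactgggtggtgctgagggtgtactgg
C1qb (chr4:136886201-136886450): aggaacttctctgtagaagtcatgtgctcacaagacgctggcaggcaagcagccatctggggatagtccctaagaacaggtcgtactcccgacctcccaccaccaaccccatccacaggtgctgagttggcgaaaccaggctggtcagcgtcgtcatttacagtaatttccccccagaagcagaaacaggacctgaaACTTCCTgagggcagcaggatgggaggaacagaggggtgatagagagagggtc
C1qc (chr4:136892915-136893164): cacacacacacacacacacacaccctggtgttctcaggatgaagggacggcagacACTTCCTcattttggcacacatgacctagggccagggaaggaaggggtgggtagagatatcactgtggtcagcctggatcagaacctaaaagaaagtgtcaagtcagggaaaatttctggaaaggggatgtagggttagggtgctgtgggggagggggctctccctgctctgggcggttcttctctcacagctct
C3 (chr17:57228137-57228386): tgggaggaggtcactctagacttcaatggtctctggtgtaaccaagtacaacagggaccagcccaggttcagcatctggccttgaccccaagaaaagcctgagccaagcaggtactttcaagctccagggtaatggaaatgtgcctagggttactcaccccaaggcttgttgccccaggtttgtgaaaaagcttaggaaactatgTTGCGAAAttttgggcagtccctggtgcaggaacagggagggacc

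Each motif was searched on both strands. The C3ar1 window holds TGACTCA, the motif of the AP-1 family, 22 to 16 bases before the start. The C5ar1 window holds ACTTCCT, the reverse complement of the ETS family motif AGGAAGT, at 72 to 66 and again at 190 to 184 bases before the start. The same letters stand 53 to 47 bases before the start of C1qb and 195 to 189 bases before that of C1qc. The C3 window holds TTGCGAAA, a match to the C/EBP motif TTGCNNAA, 45 to 38 bases before the start. Among 32851 RefSeq windows of the same length, 4.46% held TGACTCA, 7.69% AGGAAGT and 9.56% TTGCNNAA on either strand. The matches describe the sequence only, and no binding was measured.

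Of the 9 genes, only the receptors passed the threshold, C3ar1 upward and C5ar1 downward in the MSC-EV group, against different groups. C3ar1, the receptor for C3a, was 1.34-fold higher in the MSC-EV group than in the PBS group. C5ar1, the receptor for C5a on neutrophils, monocytes and macrophages, was 1.38-fold lower with MSC-EV than with HEK-EV. The C1q chains, Cfp and Cfb passed the threshold in none of the comparisons, nor did C3 and C4b, although both were lower in every MSC-EV sample than in any HEK-EV sample. Differences are given on the log2(TPM + 1) scale with their standard error (SE) from limma, fitted on all 13820 genes, and the threshold is a Benjamini-Hochberg adjusted p of 0.05.

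C3ar1 stood at 223, 186 and 178 TPM with PBS, 218, 219 and 216 with HEK-EV and 265, 264 and 256 with MSC-EV. Each MSC-EV sample was higher than any sample of the other groups. The difference of MSC-EV from PBS was 0.42 (SE 0.0768, 95% interval 0.25 to 0.60, adjusted p = 0.0251). The difference from HEK-EV, 0.26 (SE 0.0768, 0.09 to 0.43), did not pass (adjusted p = 0.077), and neither did that of HEK-EV from PBS, 0.16 (-0.01 to 0.34, adjusted p = 0.999). Over 18 alternatives, MSC-EV minus HEK-EV passed in 3 (adjusted p 0.0099 to 0.214). The call against PBS was lost when PBS replicate 2 (adjusted p = 0.118), PBS replicate 3 (0.0874), MSC-EV replicate 1 (0.108) or MSC-EV replicate 2 (0.0774) was left out. Without both samples of the highest acinar share the difference was 0.44 with an adjusted p of 0.0774, and over the 18 alternatives that gave a value the adjusted p ranged from 0.00137 to 0.119, with 11 past the threshold.

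C5ar1 was at 263, 281 and 339 TPM with PBS, 292, 307 and 378 with HEK-EV and 221, 237 and 246 with MSC-EV. All MSC-EV samples were below the lowest sample of either other group. The difference of MSC-EV from HEK-EV was -0.46 (SE 0.116, 95% interval -0.72 to -0.20, adjusted p = 0.0495), close to the threshold. Against PBS it was -0.32 (SE 0.116, -0.58 to -0.06, adjusted p = 0.136), which did not pass. HEK-EV and PBS differed by 0.14 (-0.12 to 0.40, adjusted p = 0.999), with overlapping samples. The call against HEK-EV passed in 5 of the 18 alternatives (adjusted p 0.0245 to 0.17) and, of the fits that left out a sample, only in those without PBS replicate 1 or PBS replicate 3. It was -0.53 (adjusted p = 0.12) without both samples of the highest acinar share.

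The order of the receptors turned over between the groups. With PBS or HEK-EV, C5ar1 was above C3ar1 in all 6 samples, and C3ar1 was above C5ar1 in all 3 MSC-EV samples. The ratio of C3ar1 to C5ar1 in TPM was 0.847, 0.663 and 0.525 with PBS, 0.749, 0.715 and 0.572 with HEK-EV and 1.2, 1.11 and 1.04 with MSC-EV. This ratio was chosen after its values were seen and is given without a test.

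**Figure D1:**
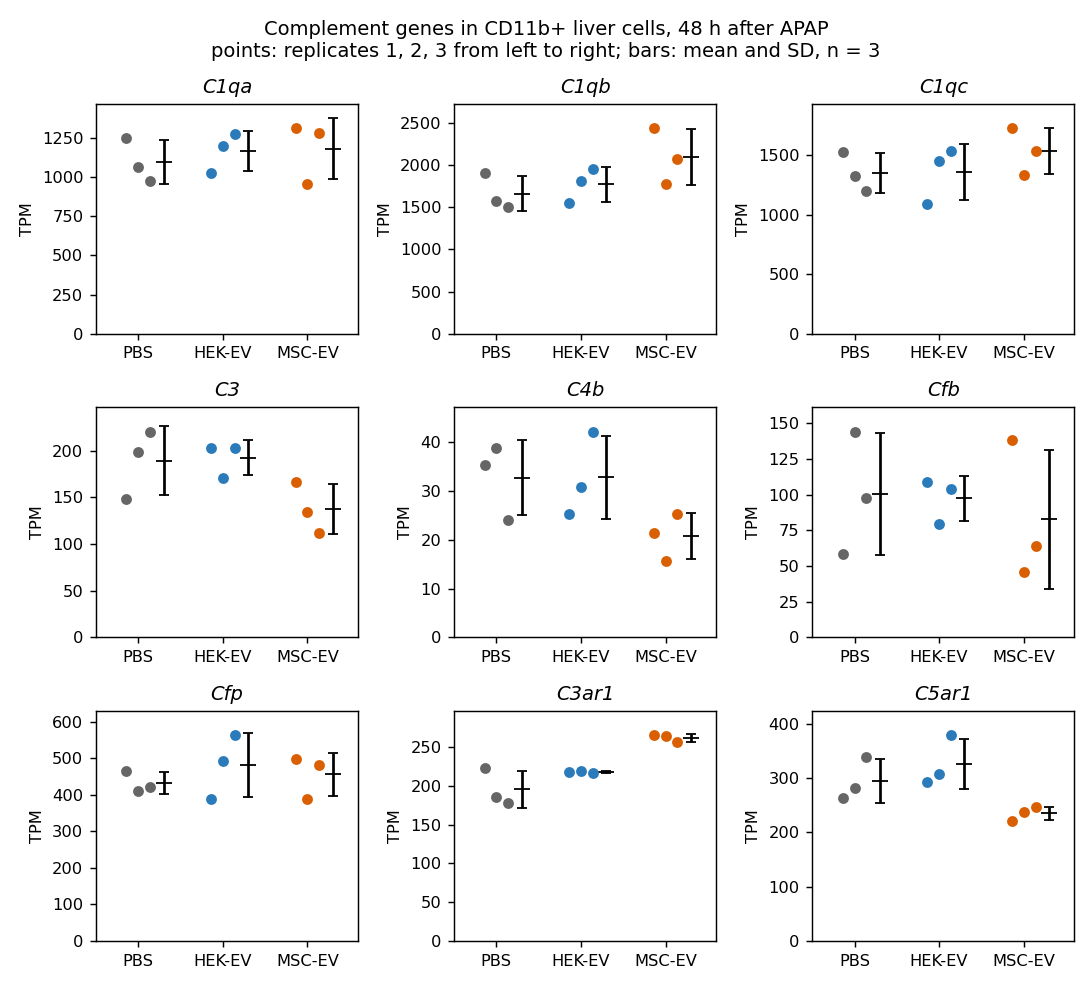
TPM (y axis, from 0) of each of the 9 complement genes in the 3 samples of each group, with points for replicates and bars for mean and SD. The MSC-EV samples of C3ar1 (256 to 265 TPM) lie above all others and those of C5ar1 (221 to 246 TPM) below all others, while the C1q chains, Cfb and Cfp overlap between groups.

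Over the 9 genes, 1 passed the threshold for MSC-EV against PBS (C3ar1, higher), beside 5.11% of all genes tested (1.86% higher and 3.25% lower). For MSC-EV against HEK-EV 1 passed (C5ar1, lower), beside 5.91% of all genes (1.51% higher and 4.4% lower). In HEK-EV against PBS none passed in limma, beside 0.0% of all genes, and 0 of the 9 had an unadjusted p under 0.05, beside 3.58%. At an unadjusted p under 0.05 there were 5 of 9 for MSC-EV against PBS and 4 of 9 for MSC-EV against HEK-EV, beside 23.0% and 23.3% of all genes. The groups' values were fully separate for 2 of 9 genes in MSC-EV against PBS and for 4 of 9 in MSC-EV against HEK-EV, where 26.0% and 30.1% of all genes did not overlap. For HEK-EV against PBS this held for 0 of 9, beside 7.81% of all genes (5.51% higher and 2.29% lower). The median difference of the 9 genes was 0.07, 0.09 and -0.07 for MSC-EV minus PBS, HEK-EV minus PBS and MSC-EV minus HEK-EV, beside 0.01, 0.03 and -0.02 over all genes tested. The shares of all genes called depend on single libraries and on the fit. For MSC-EV against PBS the 706 genes called became 1861, 5 and 7 when PBS replicate 1, 2 or 3 was left out, 25 or 59 on leaving out replicate 1 or 2 of the MSC-EV group, and 297 on leaving out HEK-EV replicate 2. For MSC-EV against HEK-EV the 817 became 1, 0 and 31 without HEK-EV replicates 1, 2 and 3, 0 without MSC-EV replicate 1 or 2 and 1369 without PBS replicate 1. With only the 6 samples compared the 706 became 77, with the acinar split as a term 21 and with no filter 361, and the 817 became 387 with no filter, 459 under FPKM and 501 under median-of-ratios scaling. Both counts were 0 without the 2 samples of the highest acinar share. The comparisons share samples and are not independent of each other.

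**Figure D2:**
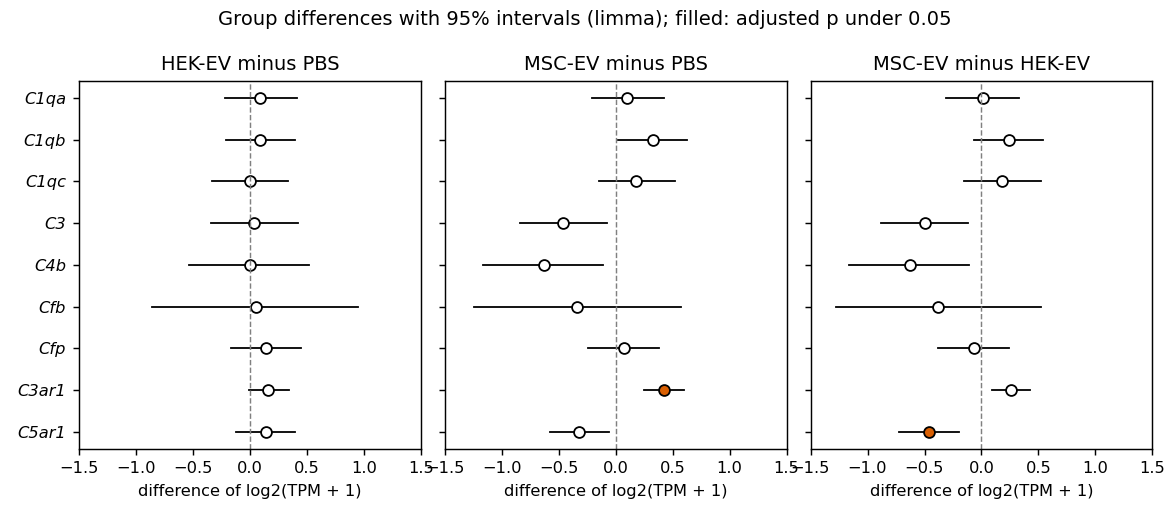
Difference of log2(TPM + 1) (x axis) of each complement gene in the 3 comparisons, with 95% intervals from limma and filled points for an adjusted p under 0.05. C3ar1 is filled at 0.42 for MSC-EV minus PBS and C5ar1 at -0.46 for MSC-EV minus HEK-EV, and in HEK-EV minus PBS every interval includes 0.

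C1q was the most abundant of the complement products. C1qb encodes the B chain, and ranked between 31 and 77 among all genes by TPM in a sample. It was at 1901, 1580 and 1508 TPM with PBS, 1547, 1817 and 1949 with HEK-EV and 2437, 1774 and 2071 with MSC-EV. The groups overlapped, and the difference of MSC-EV from PBS, 0.33 (SE 0.136, 95% interval 0.02 to 0.63), did not pass (adjusted p = 0.187). Against HEK-EV it was 0.24 (-0.07 to 0.54, adjusted p = 0.339).

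C1qc, the C chain, was at 1529, 1323 and 1198 TPM with PBS, 1087, 1456 and 1536 with HEK-EV and 1727, 1338 and 1539 with MSC-EV. C1qa, the A chain, was at 1249, 1062 and 973, at 1025, 1201 and 1274, and at 1311, 956 and 1279 TPM in the same order. Both overlapped between groups. For MSC-EV minus PBS the differences were 0.18 (-0.15 to 0.52, adjusted p = 0.509) for C1qc and 0.10 (-0.21 to 0.42, adjusted p = 0.723) for C1qa. The chains summed to 3679 to 4679 TPM with PBS, 3659 to 4760 with HEK-EV and 4068 to 5475 with MSC-EV.

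The chains kept the order C1qb, C1qc, C1qa in every sample. Because C1q is assembled from its chains in equal numbers, their ratios within a sample were compared. C1qa to C1qb was 0.657, 0.672 and 0.645 with PBS, 0.663, 0.661 and 0.654 with HEK-EV and 0.538, 0.539 and 0.618 with MSC-EV. Every MSC-EV sample was below every other sample. The means were 0.658 ± 0.0135, 0.659 ± 0.00489 and 0.565 ± 0.0458 (SD, n = 3). A two-sided exact permutation test gave p = 0.1 for MSC-EV against either other group, the smallest that 3 against 3 allow, and 0.2 after adjustment over the 6 ratio comparisons.

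C1qc to C1qb was 0.804, 0.837 and 0.795 with PBS, 0.702, 0.802 and 0.788 with HEK-EV and 0.709, 0.754 and 0.743 with MSC-EV. The MSC-EV samples lay below the PBS samples and overlapped the HEK-EV samples. The exact permutation p was 0.1 against PBS (adjusted 0.2) and 0.5 against HEK-EV (adjusted 0.6), and HEK-EV against PBS gave 0.2 (adjusted 0.3). With 3 samples a group, no such test can reach the threshold.

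**Figure D3:**
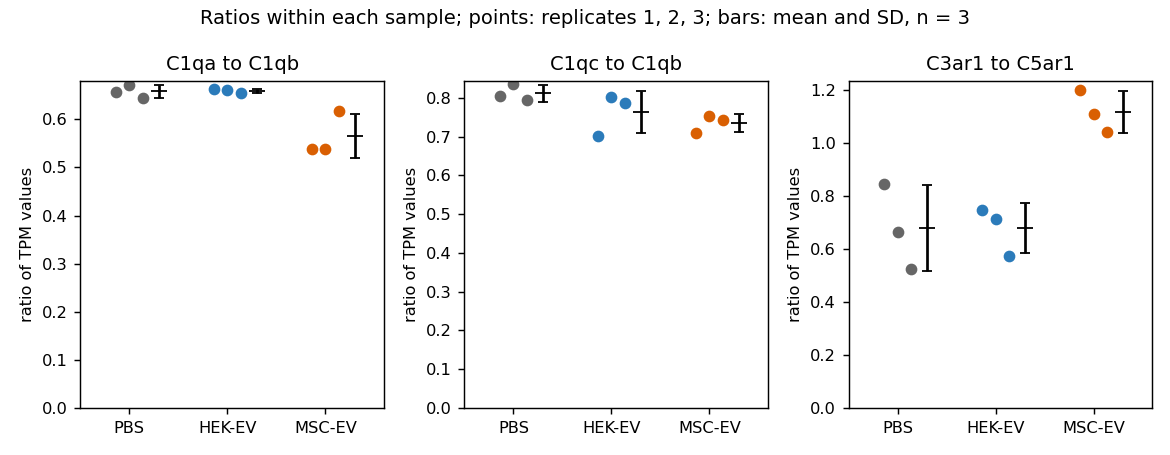
Ratio of TPM values within each sample (y axis, from 0) for C1qa to C1qb, C1qc to C1qb and C3ar1 to C5ar1, with points for replicates and bars for mean and SD. C1qa to C1qb lies between 0.538 and 0.618 with MSC-EV and between 0.645 and 0.672 in the other 6 samples, and C3ar1 to C5ar1 is above 1 in the MSC-EV samples only.

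C3, the component on which all pathways converge, was at 148, 199 and 220 TPM with PBS, 203, 171 and 203 with HEK-EV and 166, 134 and 112 with MSC-EV. The MSC-EV samples were below all HEK-EV samples and overlapped the PBS samples through PBS replicate 1. The differences did not pass, at -0.46 (SE 0.169, 95% interval -0.84 to -0.08, adjusted p = 0.14) against PBS and -0.50 (SE 0.169, -0.88 to -0.12, adjusted p = 0.113) against HEK-EV. Without PBS replicate 1 the difference from PBS was -0.63, past the threshold (adjusted p = 0.0313).

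C4b, the C4 gene whose product is cleaved in the classical and lectin pathways, was the lowest of the 9 genes. It was at 35.4, 38.8 and 24.0 TPM with PBS, 25.3, 30.9 and 42.1 with HEK-EV and 21.3, 15.7 and 25.2 with MSC-EV. The MSC-EV samples lay below the HEK-EV samples, though only just (25.2 against 25.3 TPM), and overlapped the PBS samples. The difference was -0.63 (SE 0.234, -1.16 to -0.11, adjusted p = 0.142) against either group.

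Cfb had the largest SE of the 9 genes (0.401), with its spread mainly within the PBS and MSC-EV groups. It was at 58.6, 144 and 97.9 TPM with PBS, 109, 79.5 and 104 with HEK-EV and 138, 45.8 and 64.2 with MSC-EV. The ranges of the groups overlapped throughout. MSC-EV minus PBS was -0.34, with an interval from -1.24 to 0.57 (adjusted p = 0.681), and MSC-EV minus HEK-EV -0.38 (-1.28 to 0.52, adjusted p = 0.625). Cfp overlapped between the groups too, at 466, 409 and 422 TPM with PBS, 389, 492 and 562 with HEK-EV and 499, 387 and 480 with MSC-EV. Its difference was 0.07 (-0.24 to 0.38, adjusted p = 0.82) for MSC-EV minus PBS and -0.07 (-0.38 to 0.24, adjusted p = 0.806) for MSC-EV minus HEK-EV.

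Between HEK-EV and PBS the differences of all 9 genes lay between 0.00 and 0.16 in size (adjusted p of 0.999 or above). The intervals were narrowest for C3ar1, -0.01 to 0.34, and widest for Cfb, -0.86 to 0.95.

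Profiles over the 9 samples were compared with those of 9580 genes with a mean of at least 5 TPM, by the root-mean-square difference (RMS) of log2(TPM + 1) around each gene's mean. For C3ar1, whose own RMS around its mean was 0.193, the most alike were Abhd4 (0.035), Decr2 (0.0376) and Zfp397 (0.0401). For C5ar1 (0.235) they were S100a11 (0.0589), Btg2 (0.0608) and F13a1 (0.0637), the last of which is in the list of Ly6C-high monocyte markers. For C3 (0.305) they included Casp4 (0.0765) and Fas (0.117). For Cfb (0.526) they were Ly6a (0.191), Cxcl10 (0.196) and Tgtp2 (0.243). Cxcl10, an interferon-induced chemokine, was at 62.8, 145 and 106 TPM with PBS, 94.5, 59.4 and 76.5 with HEK-EV and 130, 47.0 and 58.7 with MSC-EV, high and low in nearly the same samples as Cfb. For the mean of the C1q chains (0.184) the most alike were Rxra (0.0657), Ap1b1 (0.0712) and Dnaaf5 (0.0728), and for Cfp (0.173) Hyal2 (0.0621), Cd38 (0.0694) and Rbm3-ps (0.0756). These are descriptions over 9 samples that share their groups.

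**Figure D4:**
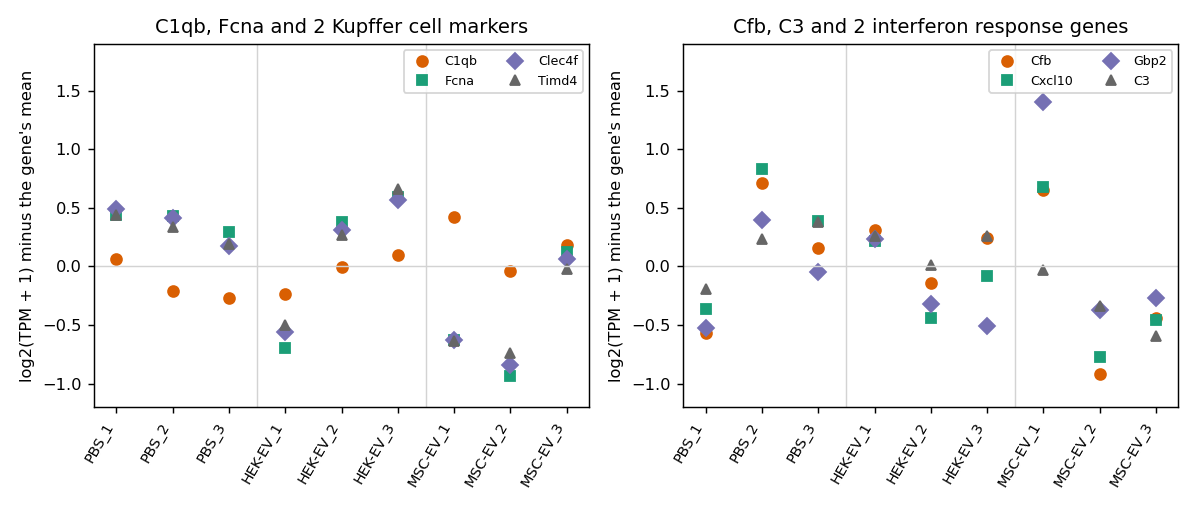
log2(TPM + 1) minus the gene's mean over the 9 samples (y axis) in each sample (x axis), for C1qb with Fcna and the Kupffer cell markers Clec4f and Timd4 (left) and for Cfb and C3 with the interferon response genes Cxcl10 and Gbp2 (right). Where Clec4f is low, C1qb is at its highest in MSC-EV replicate 1 (2437 TPM), low in HEK-EV replicate 1 (1547) and just under its mean in MSC-EV replicate 2 (1774), and Cfb and Cxcl10 are both high in PBS replicate 2 and MSC-EV replicate 1.

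Markers of the cells in the mixture were set beside these values. The 10 markers of Ly6C-high monocytes, cells recruited to injured liver, summed to 6693 to 13268 TPM with PBS, 8468 to 10785 with HEK-EV and 4156 to 5101 with MSC-EV. For MSC-EV against PBS all 10 were lower and 5 passed the threshold (median -1.03). Hp stands in both the monocyte and the hepatocyte list, and Vsig4 both in the Kupffer cell list and among the complement receptors. The 14 Kupffer cell markers summed to 3608 to 4470, 2691 to 4935 and 2243 to 3634 TPM, with 14 of 14 lower in MSC-EV than in PBS and none past the threshold (median -0.55). Clec4f, a defining gene of Kupffer cells, was at 668, 635 and 538 TPM with PBS, 323, 592 and 705 with HEK-EV and 307, 265 and 498 with MSC-EV. Of the 3 samples with the lowest Clec4f, MSC-EV replicate 1 had the highest C1q sum of all (5475 TPM), HEK-EV replicate 1 the lowest (3659) and MSC-EV replicate 2 the lowest of its group (4068), with the lowest C1qa of all samples (956). The 13 neutrophil markers summed to 3317 to 6016, 5379 to 7446 and 3293 to 4119 TPM, and Csf3r, the G-CSF receptor of neutrophils, was at 439 to 520, 555 to 658 and 451 to 488 TPM. These markers went both ways, with 4 higher and 9 lower with MSC-EV than with either other group. Against PBS 1 passed, higher (median -0.17), and against HEK-EV 1 passed higher and 2 lower (median -0.52).

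The 22 interferon response genes summed to 3075 to 5542 TPM with PBS, 3257 to 4162 with HEK-EV and 2152 to 3104 with MSC-EV, and 21 of 22 were lower in MSC-EV than in PBS, 4 of them past the threshold (median -0.73). All 22 were lower in HEK-EV than in PBS too, with none past the threshold (median -0.21). Their sum was highest in PBS replicate 2 (5542 TPM), as Cfb was. In MSC-EV replicate 1 Cfb was higher (138 TPM) than in any HEK-EV sample (79.5 to 109), whereas the sum was lower (3104 TPM). The 20 hepatocyte markers, which stand for cells that make much of the liver's complement, summed to 842 to 1136, 835 to 1203 and 1054 to 1211 TPM. Of the 19 tested, 18 were higher in MSC-EV than in PBS, 4 past the threshold (median 0.69). Alb was at 135, 135 and 185 TPM with PBS, 89.9, 126 and 193 with HEK-EV and 278, 329 and 257 with MSC-EV. The means of C3 and C4b were lowest in the MSC-EV group. The 9 endothelial markers summed to 651 to 720, 577 to 736 and 364 to 489 TPM, and against PBS 9 of 9 were lower with MSC-EV, 1 of them past the threshold (median -0.80). The 7 biliary markers summed to 741 to 1710, 895 to 1185 and 1772 to 2360 TPM, and the 6 tested were all higher than with PBS, 3 past the threshold (median 0.81). The 5 stellate markers tested were all higher with MSC-EV than with PBS, with none past the threshold (median 0.78), and so were the 3 lymphocyte markers tested, with 1 past it (median 0.48), while the 8 dendritic cell markers tested split evenly with none past it (median -0.02). The stellate list summed to at most 29.5 TPM and the lymphocyte list to at most 15.9 TPM in any sample. Of the 21 acinar genes, 17 were at 0 in all PBS samples. Against HEK-EV, all 10 monocyte markers were lower with MSC-EV (5 past the threshold), as were all 9 endothelial (1 past it), 12 of 14 Kupffer cell (0) and 21 of 22 interferon response genes (0). In that comparison 18 of 19 hepatocyte markers were higher (9 passed higher and 1 lower), as were 5 of 6 biliary markers (3 passed higher). Ptprc was lower with MSC-EV in both comparisons. Against HEK-EV its difference was -0.53, beside -0.46 for C5ar1 and -0.54 for Itgb2. Against PBS it was -0.46, beside -0.32 for C5ar1 and -0.49 for Itgb2. The part of these cell type, interferon and Ptprc levels in the values of the receptors, C3 and C4b was not tested.

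The other genes of the pathway came from lists of 43 genes by role, of which 30 passed the filter. For MSC-EV against PBS 15 were higher and 15 lower, and 4 passed the threshold, beside 5.11% of all genes, with Clu and Cd93 higher and Fcnb and Itgb2 lower. For MSC-EV against HEK-EV 6 passed, beside 5.91% of all genes, with Clu and C8a higher and Fcnb, C5ar2, Itgam and Itgb2 lower. HEK-EV against PBS gave none in limma, and 4 at an unadjusted p under 0.05, beside 3.58% of all genes. At that unadjusted p there were 13 of 30 for MSC-EV against PBS and 14 of 30 for MSC-EV against HEK-EV, beside 23.0% and 23.3%. The values of the groups were separate for 15 and 16 of 30, beside 26.0% and 30.1%, and for 5 of 30 in HEK-EV against PBS, beside 7.81%. C8a and Cpn1, a soluble regulator, reached 1 TPM in the MSC-EV samples only. They thus entered these counts through the group in which they were high. The median difference of the 30 was -0.01, 0.01 and -0.07 for MSC-EV minus PBS, HEK-EV minus PBS and MSC-EV minus HEK-EV.

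Among the 7 soluble regulators tested, Clu had the largest difference of MSC-EV from PBS on the log2(TPM + 1) scale. Clu encodes clusterin, a secreted chaperone that also blocks the terminal complex. It averaged 46.8 ± 5.66 TPM with PBS, 60.9 ± 10.5 with HEK-EV and 136 ± 20.3 with MSC-EV (SD, n = 3). The difference was 1.51 (SE 0.149, adjusted p = 0.00654) from PBS and 1.14 (SE 0.149, adjusted p = 0.0205) from HEK-EV. Against PBS it stayed past the threshold in 16 of 18 alternatives and missed it without PBS replicate 2 (adjusted p = 0.0511) and without both samples of the highest acinar share (0.0534). Vtn encodes vitronectin, a plasma protein that also inhibits the terminal complex. It averaged 4.48 ± 1.28, 4.22 ± 1.93 and 9.14 ± 2.0 TPM (PBS, HEK-EV and MSC-EV), and its differences of 0.89 from PBS (SE 0.273, adjusted p = 0.088) and 1.0 from HEK-EV (SE 0.273, adjusted p = 0.0613) did not pass. Clu and Vtn were highest in the group in which 18 of 19 hepatocyte and 6 of 6 biliary markers were higher than with PBS. Which cells those markers came from, and the part of such cells in the levels of Clu and Vtn, was not tested.

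In the lectin pathway 4 of 8 genes passed the filter. Fcnb, a ficolin of neutrophils and monocytes, was at 5.81 ± 3.01, 5.44 ± 1.13 and 1.69 ± 0.486 TPM (PBS, HEK-EV and MSC-EV), a difference of -1.25 from PBS (SE 0.305, adjusted p = 0.0492) and -1.26 from HEK-EV (SE 0.305, adjusted p = 0.0444). Fcna, the ficolin of macrophages, was far higher, at 265 ± 14.2, 230 ± 94.5 and 152 ± 60.2 TPM, and its difference of -0.87 from PBS did not pass (adjusted p = 0.16). Masp1, a protease of the lectin complexes, was at 7.54 ± 1.48, 6.47 ± 2.47 and 4.67 ± 1.57 TPM, and it overlaps Rtp4 on the other strand.

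None of the 4 other classical pathway genes tested passed: C1ra, the C1r protease, averaged 11.7, 11.7 and 12.6 TPM and C2, the partner of C4 in its convertase, 10.2, 8.92 and 8.31 TPM. In the terminal pathway, which builds the membrane attack complex, C6 averaged 27.1 ± 7.31, 31.1 ± 17.2 and 22.3 ± 11.2 TPM, and the C5 gene Hc 0.85, 0.728 and 1.06 TPM. C8a was called higher in MSC-EV than in HEK-EV (0.55, SE 0.132, adjusted p = 0.0432) at levels of 1.20 ± 0.0582 against 0.502 ± 0.146 TPM, and passed in 2 of the 17 alternatives that tested it. It reached 1 TPM in the MSC-EV samples only, so it passed the filter through the group in which it was high. Its call therefore carries little weight. Cfd, the factor D gene, was listed at 0 in all PBS samples and was not tested.

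None of the 4 membrane regulators tested passed. Cr1l, which encodes the mouse regulator Crry and overlaps Cd46, averaged 101, 109 and 95.3 TPM, and Cd55, the decay-accelerating factor, 16.4 ± 2.28, 23.0 ± 15.1 and 10.0 ± 2.42 TPM.

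Among the 7 other receptors, C5ar2, the further C5a receptor and the chromosomal neighbour of C5ar1, was at 28.2 ± 3.26, 32.7 ± 2.03 and 22.2 ± 2.07 TPM. Like C5ar1 it passed against HEK-EV (-0.54, SE 0.0993, adjusted p = 0.0241) and not against PBS (-0.33, adjusted p = 0.0874). The genes for the chains of complement receptor CR3, which binds fragments of C3, were also lower with MSC-EV than with HEK-EV. Itgb2 was at 821 ± 62.3, 848 ± 38.0 and 586 ± 49.7 TPM (-0.49 from PBS, adjusted p = 0.0218, and -0.54 from HEK-EV, adjusted p = 0.0205). Itgam, which encodes CD11b, the protein by which the cells were isolated, was at 330 ± 44.3, 372 ± 54.1 and 229 ± 29.6 TPM (-0.53 from PBS, adjusted p = 0.0553, and -0.70 from HEK-EV, adjusted p = 0.0257). Cd93, once described as a C1q receptor, was higher, at 217 ± 24.2, 253 ± 17.1 and 279 ± 12.1 TPM (0.37 from PBS, SE 0.0864, adjusted p = 0.0454). Vsig4, the complement receptor of Kupffer cells, averaged 420 ± 58.8, 365 ± 112 and 296 ± 106 TPM and did not pass (adjusted p = 0.275 against PBS). Over the 18 alternatives the calls against PBS passed in 11 for Itgb2, 4 for Cd93 and 4 for Fcnb. Leaving out PBS replicate 2 or 3 or MSC-EV replicate 1 or 2 ended that of Itgb2 (adjusted p 0.054 to 0.102). Those of Cd93 (0.0506 to 0.138) and Fcnb (0.0616 to 0.179) held only without PBS replicate 1 among these fits. Without PBS replicate 1, C5ar2 (-0.41, adjusted p = 0.029) and Itgam (-0.62, adjusted p = 0.0245) also passed against PBS. Itgam did so without HEK-EV replicate 3 as well (-0.53, adjusted p = 0.046). Against HEK-EV, leaving out any HEK-EV sample or MSC-EV replicate 1 or 2 ended the calls of Itgb2 (0.0531 to 0.0814), Itgam (0.0575 to 0.102) and C5ar2 (0.056 to 0.1), and Clu missed without HEK-EV replicate 1 or 2 or MSC-EV replicate 1 or 2 (0.0531 to 0.0634). Of these fits, Fcnb passed against HEK-EV only in those without PBS replicate 1 or 3 (0.0589 to 0.159 in the others). Fcna, Hc, C8a, Cd55, C5ar2 and Vsig4 also share their position with other annotated genes, so reads of these could not be separated with certainty.

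**Figure D5:**
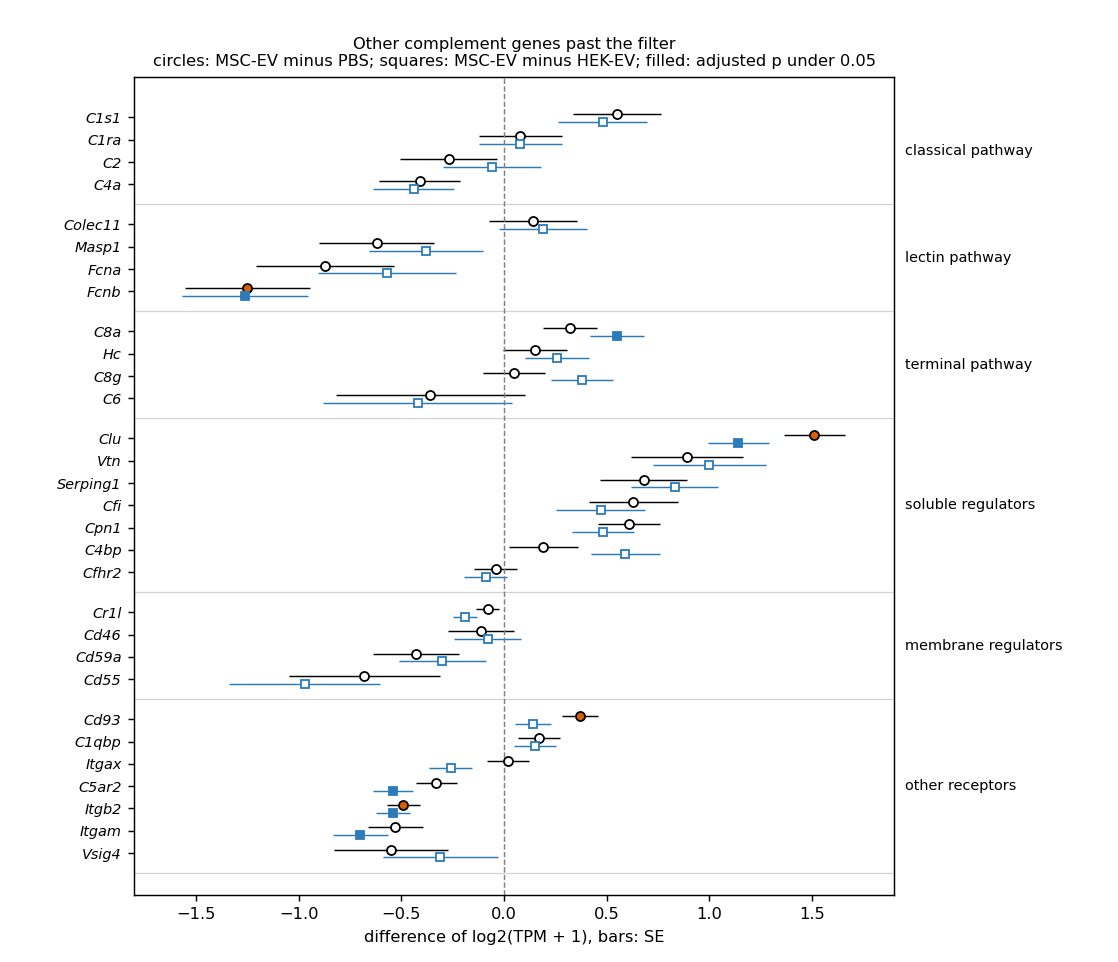
Difference of log2(TPM + 1) (x axis) of the 30 other complement genes past the filter, by role, with SE bars, circles for MSC-EV minus PBS and squares for MSC-EV minus HEK-EV, filled for an adjusted p under 0.05. Clu is farthest to the right at 1.51 and 1.14, and Fcnb farthest to the left at -1.25 and -1.26.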

How the data were processed

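Bulk RNA of CD11b+ liver cells from 9 samples was extracted with Trizol and, per the labels' protocols, made into TruSeq Stranded mRNA libraries. The submitters' processing notes name HISAT2 2.1.0, StringTie and build mm10, without their settings. Whether genes were counted by strand is not given in the sources used here. The TPM and FPKM were deposited by the authors for each gene, with coverage as a mean read signal, also deposited by the authors. Values were summed where a gene ID occurred more than once. Symbols were matched by ID to the RefSeq table of GRCm38.p6, where 45679 of 45777 genes (99.79%) had one, and 96.4% had the same start and end.

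Samples were grouped by the treatment in their labels. TPM were used without further scaling as log2(TPM + 1), for genes reaching 1 TPM in 3 or more samples, in limma 3.58.1 (R 4.3.3; lmFit, contrasts.fit, eBayes with trend). All 9 samples entered 1 fit with no covariate. P-values are two-sided and adjusted by Benjamini-Hochberg over all 13820 genes. Folds are from differences of log2(TPM + 1) and understate the change of low genes. Ratios were compared by exact permutation tests. The remaining steps used Python 3.11.15, pandas 2.3.3, numpy 2.4.6, matplotlib 3.10.9 and scipy 1.17.1. The fit was tested on simulated data.

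The 9 genes, the lists and the markers were chosen with earlier results of these data known. The genes named were the 9, each other complement gene past the threshold, the 2 most abundant of each role list, and the 3 genes most like each profile, apart from items not reported here, which the counts of other complement genes also leave out. Cfd, Cpn1, Clec4f, Alb, Csf3r, Krt19 and the ratio of the receptors were added as descriptions. Alternatives tried were FPKM, median-of-ratios scaling, a minimum of 5 TPM or none, a pseudocount of 0.1, the replicate number as a block, fits of only the 6 samples compared, and fits without each sample. An acinar term at 0.003% and leaving out the 2 samples of the highest acinar share were added after the data were seen.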

Additional observations from a re-analysis of the deposited data

How the results depend on the processing

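With the replicate number as a block in the fit, C3ar1 for MSC-EV minus PBS was 0.42 (adjusted p = 0.0365) and C5ar1 for MSC-EV minus HEK-EV -0.46 (adjusted p = 0.0245), with 1 of the 9 genes past the threshold in each comparison. The numbers do not pair the samples: same-numbered samples correlated at -0.499 to 0.058 in their deviations from the group means, so the block result is given only here. The samples did not all correlate best with their own number. With the block, 404 of all genes passed for MSC-EV against PBS and 448 for MSC-EV against HEK-EV. The block changed no call of the 9 genes, and of the other pathway genes Cd93 missed against PBS (0.37, adjusted p = 0.0609) and C8a against HEK-EV (0.55, adjusted p = 0.0919), while Itgam passed against PBS (-0.53, adjusted p = 0.0167).

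Over 18 alternatives, 1216 of 1398 log2 values kept their direction and side of the threshold. Most of these were of differences that had not passed, which only had to miss the threshold again. The calls held less evenly. Against PBS they passed in 4 (Cd93 and Fcnb) to 16 (Clu) of 18. Against HEK-EV they passed in 5 (C5ar1) to 13 (Clu) of 18, and in 2 of 17 for C8a. For MSC-EV against PBS, none of the 9 genes passed with only the 6 samples compared (C3ar1 0.42, adjusted p = 0.0597), with the acinar term (0.42, adjusted p = 0.119) or without the 2 samples of the highest acinar share (0.44, adjusted p = 0.0774), and leaving out a sample gave 0 to 2, with C3ar1 at 0.36 to 0.52. The other pathway genes numbered 2 under median-of-ratios scaling (beside 612 of all genes), 1 with only 6 samples, 1 with the acinar term, 0 without those 2 samples, and 0 to 6 when a sample was left out. For MSC-EV against HEK-EV, none of the 9 passed at a pseudocount of 0.1 (C5ar1 -0.46, adjusted p = 0.0516), with no filter (-0.46, 0.108), under median-of-ratios scaling (-0.44, 0.0828), with the acinar term (-0.46, 0.0533) or without those 2 samples (-0.53, 0.12). Of all genes, 745 passed at that pseudocount and 550 with the acinar term. Under FPKM C5ar1 was -0.39 (adjusted p = 0.115) and C3ar1 passed instead. With only 6 samples 2 passed, beside 1098 of all 13820 genes, and 0 to 2 when a sample was left out, with C5ar1 at -0.54 to -0.35. The other pathway genes numbered 3 under FPKM, 0 without those 2 samples and 0 to 8 when a sample was left out. The cause of these differences was not tested.

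The directions that turned were of differences that had not passed. Under FPKM, HEK-EV minus PBS was -0.02 for C1qc and -0.03 for Fcnb, and under median-of-ratios scaling -0.03 and -0.02. With the acinar term HEK-EV minus PBS was 0.01 for C4b, -0.24 for Cfb, 0.27 for Vtn and 0.08 for Hc, and MSC-EV minus PBS -0.03 for C1ra. Without the 2 acinar-rich samples, HEK-EV minus PBS was -0.06 for C1qc, 0.02 for C4b and -0.03 for C6, MSC-EV minus HEK-EV -0.03 for C1qa and -0.0069 for C1ra, and MSC-EV minus PBS -0.01 for C1ra. Leaving out each sample, the ranges for MSC-EV minus PBS were -0.06 to 0.30 for C1ra, -0.0013 to 0.18 for Cfp, -0.78 to 0.0049 for Cfb and -0.71 to 0.02 for C6. For MSC-EV minus HEK-EV they were -0.08 to 0.16 for C1qa, -0.06 to 0.30 for C1ra, -0.22 to 0.05 for Cfp and -0.29 to 0.17 for C2. For HEK-EV minus PBS they were -0.13 to 0.16 for C3, -0.20 to 0.16 for C4b, -0.29 to 0.35 for Cfb, -0.09 to 0.16 for C1qc, -0.35 to 0.33 for Fcnb, -0.01 to 0.10 for Itgb2, -0.12 to 0.12 for C1ra, -0.33 to 0.54 for C6, -0.44 to 0.02 for C2, -0.55 to 0.09 for Fcna, -0.46 to 0.04 for Masp1, -0.40 to 0.04 for Vsig4, -0.39 to 0.15 for Vtn and -0.19 to 0.68 for Cd55. The planned acinar term at 0.001% of TPM could not be fitted, since all 9 samples were above it. No read counts were used, so counting error is unknown, and small differences of low genes such as C8a are the least certain.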
